A study of Mus musculus with 23 samples.

Results

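The genes of the cytosolic ribosomal proteins were followed in the hippocampus of anemic mouse pups. Members were all rows of the gene count table whose symbol is Rpl or Rps followed by a digit, or is Rplp0, Rplp1, Rplp2 or Rpsa. Names that start with Rps6k (kinases) and names that contain -ps (processed copies) were left out. This gave 88 of 24421 rows, of which 53 carry a large subunit name and 34 a small subunit name. The remaining row is Rps19bp1, a binding partner of Rps19 that meets the rule by its name and is not a ribosomal protein. Rps4l and Rpl37rt are annotated as transcribed processed pseudogenes.

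Polyadenylated RNA came from the hippocampus of pups on postnatal day 14, in 23 libraries of 6 groups. Severe phlebotomy-induced anemia (sPIA) had a goal hematocrit, the red cell share of blood volume, of 18%, and moderate anemia (mPIA) a goal of 25%. From postnatal day 3, blood was taken 2 times a day from the facial vein (5.25 µl per g), and once daily (3.5 µl per g) after a pup had reached its goal. Non-bled controls (NBC) had a needle prick to the neck. The sPIA females, mPIA females, NBC females, sPIA males and mPIA males each have 4 libraries, and the NBC males have 3, numbered 2, 3 and 4. The labels give no strain, litter or measured hematocrit for a pup, and each library was taken as 1 mouse.

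A ribosome is built from ribosomal RNA and about as many kinds of protein as there are genes here, most of them present as a single copy per ribosome. Their mRNAs begin with a run of pyrimidines, the terminal oligopyrimidine (TOP) tract, through which the kinase complex mTORC1 and the protein Larp1 control their translation together. The genes are short, are highly expressed in most cells, and have left many processed pseudogenes, which are intronless copies of their mRNAs elsewhere in the genome. Inherited loss of a single copy of some of these genes causes Diamond-Blackfan anemia, a failure of red cell production. In neurons, protein synthesis at synapses depends on ribosomes and on growth signalling through mTORC1.

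Libraries held 15.2 M to 26.4 M counts, apart from mPIA female 3 with 44.4 M (M, mega). All 10 hippocampal neuron markers were detected, with summed levels of 7254 to 9386 CPM. CPM stands for gene counts per M library counts, here scaled by edgeR's TMM factors, which correct for differences in library composition. Markers of choroid plexus, an epithelium beside the hippocampus, were high in some libraries. Their sum was 4651 CPM in NBC male 4, 2602 CPM in NBC male 3, 2102 CPM in NBC female 2 and 1394 CPM in sPIA female 2, against 13.8 to 256.35 CPM in the other libraries. The library codes in the labels fall into series. The 8 libraries of mPIA and NBC females have codes of digits only, and the other 15 have codes that start with P or M. The labels do not say what the codes stand for, and sPIA females differ in code series from both female groups they are set against. An S number follows each code, from 13 to 20 in the sPIA libraries of both sexes and from 38 to 55 in the others. Its meaning is not given either, and in both sexes it cannot be told apart from severe anemia.

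Ribosomal protein rows took a small share of each library. Among females the mean share by rising severity came to 0.627 ± 0.004% for NBC, 0.624 ± 0.025% for mPIA and 0.585 ± 0.016% for sPIA (mean ± SD, n = 4 each). The range was 0.567% to 0.605% in sPIA females and 0.623% to 0.630% in NBC females, without overlap, while mPIA females ran from 0.592% to 0.644% and overlapped both. Males had 0.577 ± 0.044% in NBC (SD, n = 3), 0.552 ± 0.036% in mPIA and 0.585 ± 0.018% in sPIA (SD, n = 4 each). The ranges of NBC and sPIA males overlapped. The male groups thus lay nearer to sPIA females than to the other female groups. In whole tissue, fewer cells of a type and less RNA per cell cannot be told apart.

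**Figure D1:**
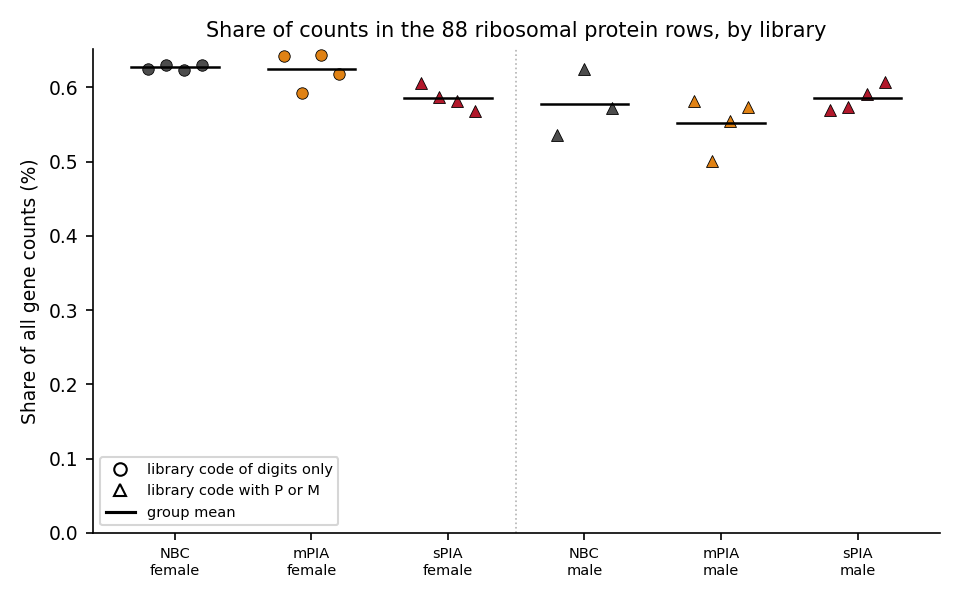
Share of all gene counts (percent, vertical axis) that fell on the 88 ribosomal protein rows. Each point is a library, the bar is the group mean, and the point shape gives the library code series. The 4 sPIA females lie between 0.567% and 0.605%, all below the 4 NBC females at 0.623% to 0.630%.

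Among the members, levels differed widely. On the scale of CPM per kb of reference transcript, the 77 members that are neither paralogs, retrogenes nor Rps19bp1 had a median of 69.8. The highest was Rplp1, which encodes an acidic protein of the stalk that recruits elongation factors, with 372 ± 34 CPM per kb (SD over 23 libraries). Rpl4 followed with 260 ± 9 CPM per kb and Rps15, a protein of the small subunit's head, with 258 ± 35 CPM per kb, so that these neighbours did not differ beyond their spread. At the other end, 8 of the 77 were under 15 CPM per kb. They were Rps27a, Rpl29, Rpl17, Rps27, Rpl34, Rps23, Rpl30 and Rpl26. Rps20 and Rps15a have long reference transcripts of 3706 and 5130 bases, which lowers their levels on this scale to 18.6 and 21.5 CPM per kb.

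Rpl26, a large subunit protein that contacts the newly made chain's exit, was nearly absent from the table. It had 1 count in all 23 libraries. The gene lies on chromosome 11 at 68901583 to 68906989 (GRCm38, plus strand). Of its reference transcript's 31-letter words, 76.2% also occur in transcripts of other genes, and 69.8% in the processed pseudogene Gm15772 on chromosome 5, which has a row with 0 counts. Rpl14 on chromosome 9 has a processed copy that did collect counts. Rpl14-ps1 on chromosome 7 had 25619 counts, 81.2% as many as the 31532 of Rpl14, and shares 54.3% of its words. The first 90 coding letters of both pairs are shown because they carry the point: in each pair 0 letters differ, so a read from this stretch fits gene and copy equally. They were read from the GENCODE M21 transcripts of GRCm38 and are given in lower case since no letter stands out.
Rpl26: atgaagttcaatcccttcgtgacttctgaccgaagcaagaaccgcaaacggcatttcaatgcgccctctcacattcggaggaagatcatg
Gm15772: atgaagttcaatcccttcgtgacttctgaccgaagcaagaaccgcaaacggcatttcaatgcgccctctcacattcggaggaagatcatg
Rpl14: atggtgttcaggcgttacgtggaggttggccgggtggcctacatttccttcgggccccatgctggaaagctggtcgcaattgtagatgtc
Rpl14-ps1: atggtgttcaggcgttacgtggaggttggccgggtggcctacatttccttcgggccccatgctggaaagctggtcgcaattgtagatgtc

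Sequence sharing was general in this family. The median member shared 59.0% of its words with other genes, against 0.182% for all annotated rows tested, and 70 members had at least 1 pseudogene that holds 25% or more of their words. Rps2 had 34 such pseudogenes, Rpl7a 29 and Rpl21 22. Spearman's rho of the level per kb was -0.02 with the share of words, -0.09 with the number of copies and -0.08 with transcript length. It is a description over all 88 members, paralogs, retrogenes and Rps19bp1 included, and was not taken for the 77 alone. Rpl3l and Rps19bp1, for example, were low in level with 0% of words shared. Rps2, Rpl7a and Rpl21 had 35.4, 34.1 and 32.9 CPM per kb, below the median of 69.8. Copies were not searched for Rps4l and Rpl37rt. The table holds 7 rows of named processed copies. After Rpl14-ps1, the highest of them were Rps15a-ps4 with 1872 counts against 52992 for Rps15a, and Rps19-ps3 with 647 against 24424 for Rps19. The row Mir682, a miRNA gene whose annotated hairpin shares 53.03% of its words with the Rpl37a transcript, had 11514 counts against 10993 for Rpl37a. No source used here says how reads that map to several places were counted, so the values of all members with close copies are uncertain.

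**Figure D2:**
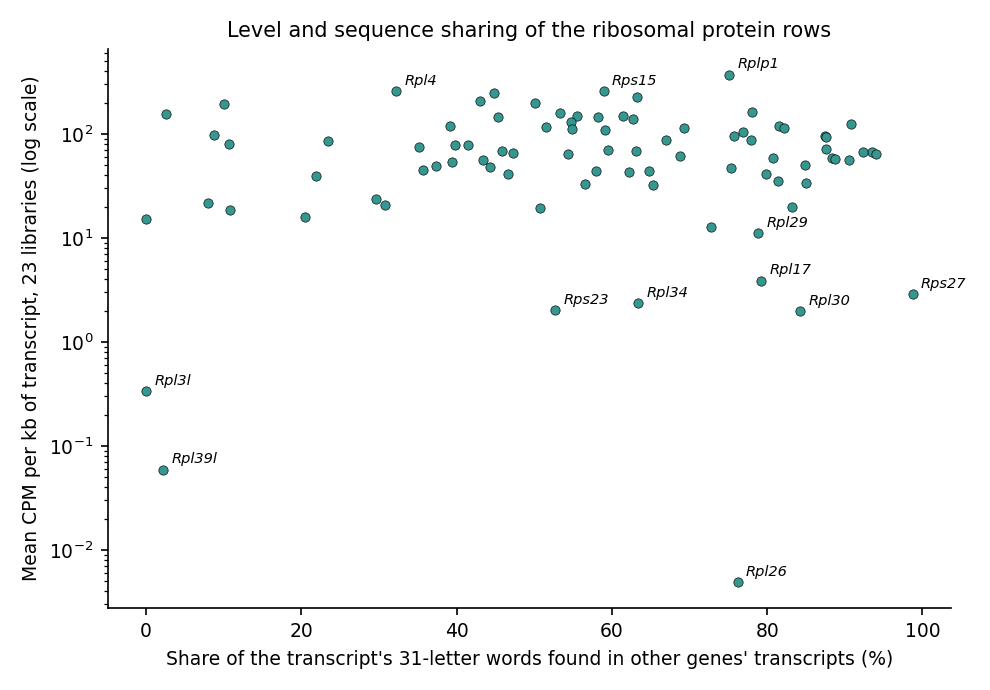
Mean level of each member over 23 libraries (CPM per kb of transcript, log scale) against the share of its transcript's 31-letter words found in other genes' transcripts (percent). Each point is a row, and Rpl10l and Rps27rt, with 0 counts, are not drawn. Low members such as Rpl26 and Rps27 sit at high sharing, but so do many members near the median of 69.8 CPM per kb.

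The paralogs, which replace a related protein in some tissues, were mostly low. Rpl10l and Rps27rt had 0 counts, which allows up to 0.00625 CPM over all libraries (3 counts over the 23 libraries together, counting error only). Rpl39l, known from mouse sperm cells, had 20 counts in all, and Rpl3l, known from heart and skeletal muscle, had 0.33 CPM per kb against 71.5 for Rpl3. Rpl22l1 reached 61.6 CPM per kb against 246 for Rpl22, and Rps27l 23.8 against 2.90 for Rps27, whose words are shared with other genes to 98.7%. Rpl7l1 had 15.8 CPM per kb against 150 for Rpl7, and Rpl36al 44.5 against 93.6 for the X-linked Rpl36a. A low-count filter removed 4 members (Rpl26, Rpl10l, Rps27rt and Rpl39l), which left 84 for the tests.

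Moderate anemia was set against non-bled controls to ask for an effect of the milder blood loss. The test was edgeR's quasi-likelihood test in a single fit of all libraries, and a row was called at a Benjamini-Hochberg adjusted p under 0.05 over the 15475 rows tested. In mPIA females 0 of 84 members were called, on a background of 0.00646% of rows, and 0 had an unadjusted p under 0.05 (background 0.355%). In 0 members did the groups not overlap (background 1.54%). The median log2 change was -0.01, the same as the -0.01 of all rows, and the 3 members of smallest p were Rplp2 (-0.12), Rps6 (-0.10) and Rps3a1 (-0.29), each at an adjusted p of 1.00 by edgeR. In mPIA males 0 were called (background 0.653%), and 4 had an unadjusted p under 0.05 (background 16%). DESeq2 and limma-voom also called 0 members in both sexes.

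Named by smallest p in mPIA males were Rpl27a, Rps6 and Rpl7. Rps6, the small subunit protein that S6 kinases phosphorylate, had 37.2, 44.9, 36.6 and 40.4 CPM in mPIA males, against 51.9, 45.4 and 47.0 CPM in NBC males. The groups did not overlap, in this and 2 other members (background 9.8%), but the log2 change of -0.27 ± 0.11 (SE) had an adjusted p of 0.185 by edgeR. Rpl27a had 54.3, 50.6, 58.4 and 48.8 CPM in mPIA males, against 57.7, 94.8 and 58.3 CPM in NBC males. NBC male 3 stood high, with an overlap between groups (-0.41 ± 0.15, adjusted p = 0.176). Rpl7 had 160, 154, 174 and 156 CPM in mPIA males, against 152, 181 and 225 CPM in NBC males. Here NBC male 4 was the high library (-0.21 ± 0.08, adjusted p = 0.224). Both are among the libraries with the most choroid plexus RNA, and the summed ependymal markers were 10.2 to 14.83 CPM in mPIA males and 15.8 to 37.7 CPM in NBC males. Leukocyte and platelet markers (1 of 8 genes tested) summed to 0.32 to 0.63 CPM in mPIA males and 1.54 to 2.09 CPM in NBC males. The part of any of these cell types was not tested. Without NBC males 3 and 4 the change of Rpl7 became 0.08, and without NBC male 2 the count of calls became 3, all lower (background 0.498% lower with all libraries), with Rpl7 at -0.34 (adjusted p = 0.00904) and Rpl27a at -0.55 (adjusted p = 0.0405).

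Most calls among ribosomal protein genes came from the comparisons of sPIA females, which differ from both other female groups in library code series too. Of the 84 members, 6 were higher and 23 lower in sPIA females than in NBC females, 34.5% in all on a background of 16% of rows (7.14% of members higher against 8.12% of rows, and 27.4% lower against 7.86%). The median log2 change of the members was -0.15, against -0.00 for all rows. Both subunits took part, with 5 higher and 13 lower of 50 large subunit rows and 1 higher and 9 lower of 33 small subunit rows. The 2 groups did not overlap in 31 members (background 21%). In all, 28 members had a positive and 56 a negative change.

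**Figure D3:**
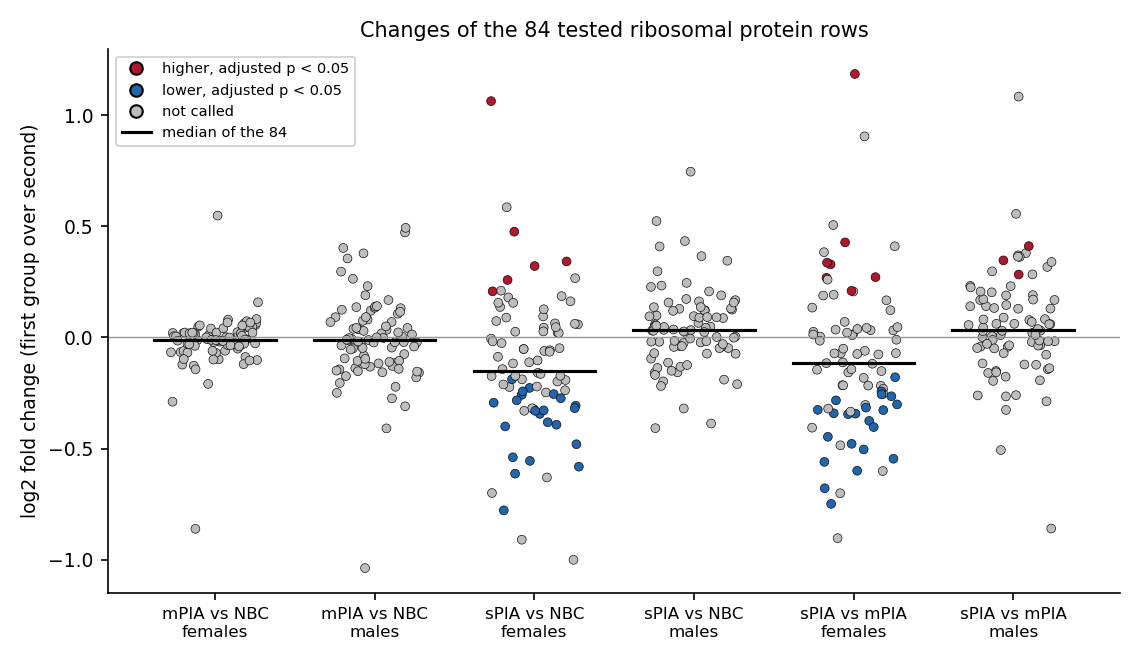
Log2 fold change of each of the 84 tested rows (points) in 6 comparisons, first group over second. Red points rose and blue points fell at an adjusted p under 0.05, and the bar is the median. Only the 2 comparisons of sPIA females hold blue points, with medians of -0.15 and -0.12.

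Rpl23a, which lies at the exit tunnel where the signal recognition particle docks, had the largest rise. It had 9.76, 15.51, 14.4 and 13.53 CPM in sPIA females, against 6.38, 6.47, 6.61 and 5.99 CPM in NBC females. All sPIA females were above all NBC females, with sPIA female 1 nearest to the controls, and the log2 change was 1.06 ± 0.18 (SE, adjusted p = 0.000235 by edgeR).

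Rpl15, Rpl10, Rpl39 and Rplp1 rose as well. Rpl15, a large subunit core protein, had 73.1, 95.7, 84.5 and 84.7 CPM in sPIA females, against 61.2, 65.6, 68.4 and 75.3 CPM in NBC females. The groups overlapped through sPIA female 1 and NBC female 4 (0.32 ± 0.09, adjusted p = 0.0199). Rpl10, an X-linked gene for a protein fitted late into the large subunit, had 55.4, 60.2, 63.2 and 57.6 CPM in sPIA females, against 51.4, 48.2, 50.7 and 47.4 CPM in NBC females, without overlap (0.26 ± 0.08, adjusted p = 0.0294). Rpl39, also X-linked and part of the exit tunnel's wall, had 25.0, 27.1, 28.5 and 29.2 CPM in sPIA females, against 18.4, 21.5, 21.7 and 25.1 CPM in NBC females, and overlapped through 1 library of each group (0.34 ± 0.11, adjusted p = 0.0345). Rplp1 had 216, 201, 197 and 191 CPM in sPIA females, all above the 181, 188, 160 and 168 CPM in NBC females (0.21 ± 0.07, adjusted p = 0.0427). All 4 lost their calls in some fits with 1 library left out. Rplp1 lost its call without any of NBC females 1, 3 and 4 and sPIA females 1, 2 and 3, and Rpl39 without any of NBC females 1, 2 and 3 and sPIA females 2, 3 and 4. Rpl10 lost it without NBC female 2 or 4 or sPIA female 2 or 3, and Rpl15 without NBC female 1 or sPIA female 2.

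Rps12, a protein of the small subunit's beak, fell with the smallest p. It had 24.0, 22.1, 22.8 and 19.4 CPM in sPIA females, against 33.7, 34.6, 47.9 and 35.3 CPM in NBC females. The groups were apart, with NBC female 3 far above the other controls (-0.78 ± 0.10, adjusted p = 3.5e-05). Rps21 had 59.8, 50.7, 52.3 and 46.9 CPM in sPIA females, against 73.2, 79.4, 70.5 and 85.3 CPM in NBC females. That small subunit gene fell by 0.56 ± 0.11 on the log2 scale (adjusted p = 0.00177).

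Rpl19, which forms a bridge between the subunits, had 30.1, 19.1, 26.6 and 21.4 CPM in sPIA females, against 39.4, 40.9, 35.96 and 32.4 CPM in NBC females. All sPIA females were below all NBC females (-0.61 ± 0.14, adjusted p = 0.00468). Rps15 was also apart, with 130, 120, 108 and 117 CPM in sPIA females, against 155, 159, 143 and 139 CPM in NBC females (-0.33 ± 0.08, adjusted p = 0.00536). The other 19 that fell had log2 changes between -0.58 (Rpl27) and -0.19 (Rpl6). They included the Diamond-Blackfan gene found first, Rps19, at 49.7 CPM in sPIA females against 61.0 CPM in NBC females (-0.29 ± 0.09, adjusted p = 0.0221). Rps19bp1 (-0.40, adjusted p = 0.0313) and the retrogene Rps4l (-0.54, adjusted p = 0.0158) fell as well. Of the 8 fits that left out 1 library, Rps19 was called in 3 (without NBC female 3, sPIA female 1 or sPIA female 3), Rps19bp1 in 2 (without NBC female 1 or sPIA female 1) and Rps4l in 4 (without NBC female 1, NBC female 4, sPIA female 1 or sPIA female 3).

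**Figure D4:**
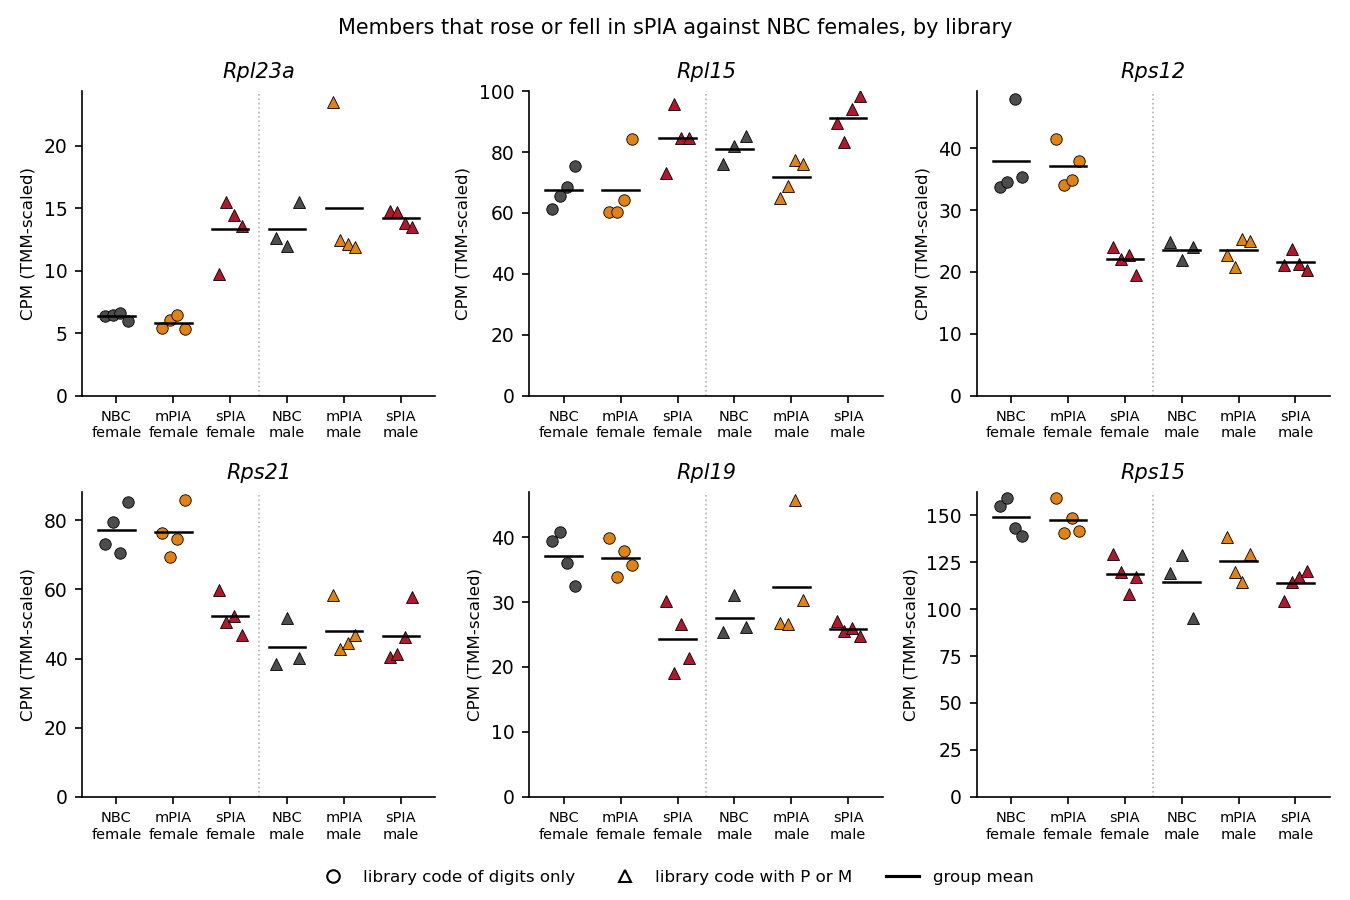
Levels (CPM, TMM-scaled) of 6 members that rose or fell in sPIA against NBC females, 1 panel per gene. Each point is a library, the bar is the group mean and the point shape gives the library code series. In the Rpl23a panel the 8 libraries with digit codes lie at 5.32 to 6.61 CPM and the other 15, all males included, at 9.76 to 23.5 CPM.

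By role, calls were found in several classes. Of the stalk genes, 1 of 3 rose (Rplp1), while Rplp0 (-0.06) and Rplp2 (0.09) were not called. Rpl5 (-0.05) and Rpl11 (-0.20), which carry the 5S RNA and bind the p53 regulator Mdm2, were not called. Of the 4 X-linked members 2 rose, and Rpl36a (0.21, adjusted p = 0.0534) and Rps4x (0.16, adjusted p = 0.141) were not called. Of 17 Diamond-Blackfan genes tested, 2 rose, among them Rpl15, and 5 fell (Rps19, Rpl18, Rpl27, Rpl35 and Rpl35a). Rpsa (-0.02), which is also known as a laminin receptor, Rps6 (0.16), Rpl41 (0.03), Rpl3 (0.19), Rpl7 (0.07) and Rpl22 (-0.11) were not called.

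The number of calls in sPIA against NBC females depended on single libraries. It was 18 without NBC female 1, 16 without NBC female 2, 16 without sPIA female 2, 17 without sPIA female 3 and 18 without sPIA female 4, and 13 members were called in all 8 such fits. Among these were Rpl23a, Rps12, Rps21, Rpl19, Rps15, Rpl21, Rpl24, Rpl37, Rpl38 and Rpl7a. Some cell type markers moved with the comparison. Summed levels were 5.83 to 22.2 CPM in sPIA females and 2.64 to 4.71 CPM in NBC females for the erythroid list, of which 8 of 10 genes have a row and 3 could be tested, with the hemoglobin rows at 0 in all libraries. The astrocyte sum (5 of 5 genes) was 2501 to 2907 CPM in sPIA females and 2294 to 2372 CPM in NBC females, and the endothelial sum (5 of 5) was 170 to 201 CPM in sPIA females and 152 to 162 CPM in NBC females. The sum of 8 leukocyte and platelet markers, at 0.95 to 1.98 CPM in sPIA females and 0.52 to 0.81 CPM in NBC females, did not overlap either. Only 1 of these 8 genes could be tested. Their part in the members' changes was not tested.

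The start sites of members that moved are shown because the TOP tract sits there. RefSeq windows (GRCm38.p6) were found for 67 members. Each sequence below has 40 letters before an annotated start and 20 from it on, on the gene's strand. Capitals mark the longest run of C and T within the 15 letters on either side of the start. A run is cut where those letters end: C and T go on after the capitals of Rps12 and before those of Rps15. Rpl15, Rpl10 and Rpl39 rose and Rps12, Rps21, Rpl19 and Rps15 fell in sPIA against NBC females, while Rps6 and Rpl23 were called in sPIA against mPIA males. Every start that RefSeq gives for these members is shown, and Rps21 and Rpl19 each have a pair of them.
Rpl15 (chr14:18270967-18271026, minus strand): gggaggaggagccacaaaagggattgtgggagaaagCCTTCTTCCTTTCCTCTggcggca
Rpl10 (chrX:74270776-74270835, plus strand): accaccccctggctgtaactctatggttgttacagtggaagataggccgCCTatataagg
Rpl39 (chrX:37085203-37085262, minus strand): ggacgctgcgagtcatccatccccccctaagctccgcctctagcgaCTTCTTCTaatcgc
Rps12 (chr10:23787190-23787249, minus strand): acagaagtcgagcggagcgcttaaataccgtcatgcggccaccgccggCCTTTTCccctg
Rps21 (chr2:180257339-180257398, plus strand): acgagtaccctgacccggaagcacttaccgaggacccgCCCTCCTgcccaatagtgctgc
Rps21 (chr2:180257409-180257468, plus strand): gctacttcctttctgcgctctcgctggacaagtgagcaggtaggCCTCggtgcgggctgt
Rpl19 (chr11:98026670-98026729, plus strand): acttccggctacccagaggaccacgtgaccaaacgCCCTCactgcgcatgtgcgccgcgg
Rpl19 (chr11:98026884-98026943, plus strand): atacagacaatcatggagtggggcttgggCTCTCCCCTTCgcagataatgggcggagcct
Rps15 (chr10:80292391-80292450, plus strand): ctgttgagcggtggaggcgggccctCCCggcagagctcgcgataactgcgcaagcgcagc
Rps6 (chr4:86857348-86857407, minus strand): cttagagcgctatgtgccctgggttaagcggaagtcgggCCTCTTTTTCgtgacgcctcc
Rpl23 (chr11:97782420-97782479, minus strand): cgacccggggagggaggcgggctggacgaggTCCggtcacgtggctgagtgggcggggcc

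Within the 15 letters on either side of the start, a run of at least 8 letters that are each C or T was counted. The run was present in 35.4% of the 79 member windows, against 12.003% of all 32851 windows, on the gene's strand. It was in 66.7% of 3 windows of members that rose, 24% of 25 windows of members that fell and 42.6% of 47 windows of members not called in sPIA against NBC females. The counts are small, and a window without the run says only that these letters are not near the annotated start. A longer run that leaves the 15 letters, as in Rps12 with 7 capitals, can be missed.

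In males, severe anemia went with no called member. Against NBC males, 0 of 84 were called in sPIA males (background 0.194%, or 0.084% higher and 0.11% lower), 5 had an unadjusted p under 0.05 (background 12.1%), and DESeq2 and limma-voom called 0. The median log2 change was 0.03, with 50 members positive and 34 negative. Rpl23a had 14.75, 14.7, 13.8 and 13.49 CPM in sPIA males, against 12.6, 11.9 and 15.49 CPM in NBC males. Those groups overlapped, and the log2 change was 0.09 ± 0.18 (adjusted p = 0.882 by edgeR). Rps12 was at -0.12 ± 0.11 (adjusted p = 0.705). Of the members of smallest p, Rpl17 had 2.40, 4.81, 4.66 and 3.86 CPM in sPIA males, against 2.66, 2.45 and 1.88 CPM in NBC males (0.75 ± 0.26, adjusted p = 0.216). Only sPIA male 1 lay within the control range. Groups did not overlap in 3 members (background 6.31%). Rps4l (-0.41, adjusted p = 0.298) and Rpl23 (0.17, adjusted p = 0.373) followed. Without the NBC males 3 and 4, which hold much choroid plexus RNA, the median change was 0.11, with a single control left. Leukocyte and platelet markers (1 of 8 genes tested) summed to 0.80 to 0.96 CPM in sPIA males and 1.54 to 2.09 CPM in NBC males. Their part was not tested.

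Severe against moderate anemia gave 7 higher and 22 lower members in females (background 16.1%, or 8.67% higher and 7.48% lower), with a median of -0.12 against 0.00 for all rows. This comparison shares the sPIA females with the one above, and 27 members were called in both. Rpl23a was at 1.19 ± 0.18 (adjusted p = 4.98e-05) and Rps12 at -0.75 ± 0.10 (adjusted p = 2.94e-05), by edgeR. Among those that fell were Rps25, used by some viral RNAs to start translation, which averaged 76.2 CPM in sPIA females and 96.4 CPM in mPIA females (log2 change -0.34 ± 0.08), and Rpl21 (-0.45 ± 0.10). Rps21 (-0.55) fell as well, and Rplp1 (0.27), Rpl15 (0.33), Rpl10 (0.27) and Rpl39 (0.34) rose. Called only here were the stalk gene Rplp2 (0.21, adjusted p = 0.0407) and Rpl13 (-0.68, adjusted p = 0.0348). Each was called in only 2 of the 8 fits that left out 1 library, Rplp2 without mPIA female 4 and without sPIA female 4, and Rpl13 without mPIA female 4 and without sPIA female 1. In 34 members these groups did not overlap (background 24.3%). The count was 18 without mPIA female 1, 19 without sPIA female 2 and 19 without sPIA female 3. Rpl15 lost its call without mPIA female 1 or 2 or sPIA female 2, Rpl10 without mPIA female 1 or 4 or sPIA female 3, and Rpl39 without mPIA female 1, 2 or 3 or sPIA female 2, 3 or 4. The summed astrocyte markers (5 of 5 genes, 1 called higher) were 2501 to 2907 CPM in sPIA females and 2272 to 2416 CPM in mPIA females, and the summed hippocampal neuron markers (10 of 10 genes, 2 called higher) were 8165 to 9386 CPM in sPIA females and 7399 to 7759 CPM in mPIA females. Neither sum overlapped between the groups, and their part in the result was not tested.

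In males, sPIA against mPIA gave 3 higher and 0 lower members (background 4.92%, or 2.13% higher and 2.8% lower), a share of 3.57% that was below the background. Rps6 had 53.1, 46.6, 66.2 and 45.5 CPM in sPIA males, against 37.2, 44.9, 36.6 and 40.4 CPM in mPIA males (0.41 ± 0.10, adjusted p = 0.0185). The groups were apart, with sPIA male 3 highest. Rpl23, another protein that binds Mdm2, had 99.4, 103, 86.35 and 86.6 CPM in sPIA males, against 76.8, 81.0, 79.3 and 71.7 CPM in mPIA males (0.28 ± 0.07, adjusted p = 0.0226). Rpl15 averaged 91.3 CPM in sPIA males and 71.7 CPM in mPIA males (0.35 ± 0.09, adjusted p = 0.0316). The copy Rpl14-ps1 rose too, at 64.8 CPM in sPIA males and 48.7 CPM in mPIA males (0.41 ± 0.12, adjusted p = 0.0416). Only 1 member was called without mPIA male 1 or without sPIA male 1, and 5 without mPIA male 3. Rps6 lost its call without mPIA male 1 or sPIA male 3, Rpl23 without mPIA male 1 or 4 or sPIA male 1 or 2, and Rpl15 without mPIA male 1 or 2 or sPIA male 1, 3 or 4. The summed ependymal markers (5 of 5 genes) were 17.2 to 23.2 CPM in sPIA males and 10.2 to 14.83 CPM in mPIA males, without overlap. Leukocyte and platelet markers (1 of 8 genes tested) summed to 0.80 to 0.96 CPM in sPIA males and 0.32 to 0.63 CPM in mPIA males. The part of these cell types was not tested.

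Whether the effect of anemia differed between the sexes was tested as an interaction, the female change minus the male change. For moderate anemia 0 members were called (background 0%), 2 had an unadjusted p under 0.05 (background 7.13%), and the members of smallest p were Rpl7 (0.25), Rps15a (0.32) and Rpl31 (0.22), with adjusted p from 0.688 to 0.746. For severe anemia 1 was higher and 3 were lower (background 0.95%, or 0.601% higher and 0.349% lower). Of these, Rps12 differed by -0.65 ± 0.15 (adjusted p = 0.0388 by edgeR) and Rpl7a by -0.46 ± 0.11 (adjusted p = 0.0452). In both, the mPIA and NBC females did not overlap the other 4 groups. Rpl7a, a large subunit protein, had 27.7, 30.1, 30.1 and 28.9 CPM in sPIA females, against 36.8, 35.6, 36.3 and 35.8 CPM in NBC females. It had 30.3, 28.9, 30.6 and 30.8 CPM in sPIA males, against 26.8, 28.1 and 26.2 CPM in NBC males. The sPIA males lay above the NBC males without overlap, but their log2 change of 0.16 had an adjusted p of 0.463 by edgeR. The severely anemic pups of both sexes overlapped each other, while the controls of both sexes did not.

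The count of sex differences rested on single libraries. It was 0 without NBC female 1, 1 without any of NBC female 3, sPIA male 4 and sPIA females 2, 3 and 4, 2 without NBC female 2 or NBC male 4, and 8 without sPIA male 1. Without NBC males 3 and 4 it was 2. Rps12 lost its call in 10 of the fits that left out libraries, with differences of -0.70 to -0.51.

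For some of the members called in sPIA females the levels separated by library code series. In 13 of the 29 called against NBC females, the 8 libraries with digit codes (mPIA and NBC females) did not overlap the other 15 libraries, while in the remaining 16 they did. With the uncalled Rpl37a this made 14 of 84 members, 16.7% on a background of 2.6% of rows. Among the 2471 rows of any kind called against NBC females, the share without overlap was 15.3%, where the called members had 44.8%. NBC males, which were not bled, overlapped sPIA females in 28 of the 29 (96.6%, against 88.5% of those rows) and NBC females in 8 (27.6%, against 42.9%). For Rpl23a the digit-code libraries had 5.32 to 6.61 CPM and the others 9.76 to 23.5 CPM. For Rps12 they had 33.7 to 47.9 CPM and the others 19.4 to 25.3 CPM, and for Rps21 69.5 to 85.9 CPM against 38.4 to 59.8 CPM. No code series holds both sPIA and NBC females, or both sPIA and mPIA females, so in females severe anemia and the code series cannot be told apart. The comparison of mPIA with NBC females lies within the digit-code series, and there 0 members were called. sPIA and NBC males both have P codes, and there too 0 were called, though their S numbers lie in separate ranges. The mPIA males have M codes. Across the M and P series 0 members were called in mPIA against NBC males, and 3 in sPIA against mPIA males. The part of the codes was not tested.

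Other short transcripts also tended to lower values in sPIA females. The tested members had a median transcript length of 774.5 bases against 2841.5 for all annotated rows tested, and 63 of them were under 1 kb. The 1054 other tested rows under 1 kb had a median log2 change of -0.11 in sPIA against NBC females, with 1.80% called higher and 11.4% lower, where the members had -0.15, 7.14% and 27.4%. Against mPIA females these short rows had a median of -0.10. Within the 84 members the log2 change against NBC females had a Spearman's rho of 0.22 with length, -0.19 with GC content and 0.07 with the share of words found elsewhere, as a description.

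With the trend of counts on length removed in each library, 10 members were higher and 10 lower in sPIA against NBC females, in place of 6 and 23, with a median of -0.07. For the fits with trends removed the share of all rows called is not given, so their counts have no background beside them. With GC content and length both removed, 8 were higher and 6 lower, again with a median of -0.07. Of the 29 first called, 12 were called there too. These held all 6 that rose, and Rps12, Rps21, Rpl19, Rpl37 and Rps25 among those that fell. Rps15 (-0.11, adjusted p = 0.197) lost its call. Against mPIA females the split was 12 higher and 12 lower with length removed, and 10 higher and 7 lower with both. The sex difference of the sPIA effect became 3 higher and 0 lower under either. Rpl23a and Rps12 kept nearly the same size with both trends removed, with log2 changes of 1.12 and -0.72. Rpl23a was then also called for the sex difference, at 1.08 ± 0.25 (adjusted p = 0.0469).

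Related gene lists were read against the share of all rows called. In sPIA against NBC females that share was 16% (8.12% higher and 7.86% lower). Of 36 initiation factors 3 rose and 2 fell, with Eif5b, which joins the subunits, at 0.30 ± 0.07 (adjusted p = 0.0027) and Eif3i at -0.37 ± 0.09 (adjusted p = 0.0036). Of 12 elongation and termination factors 4 rose and 0 fell, among them the termination factor gene Gspt1 (0.25 ± 0.06, adjusted p = 0.00684) and Etf1, its partner (0.29 ± 0.08, adjusted p = 0.0129). Eef1a1 (0.02) and Eef2 (0.03), whose mRNAs also carry TOP tracts, were not called. Of 18 other TOP mRNAs 3 rose, with Pabpc1, the poly(A) binding protein, at 0.27 ± 0.06 (adjusted p = 0.00411), and 1 fell. Tpt1 was at 0.06 and not called. Ribosome biogenesis had 2 rises and 2 falls of 36, with Nop56 at -0.23 ± 0.06 (adjusted p = 0.00951), so that this list, like the initiation factors, had a smaller share called than all rows. The S6 kinase and mTORC1 list had 5 rises, and 1 fall of 18, led by Larp4, an RNA-binding protein (0.46 ± 0.09, adjusted p = 0.00125), and Rps6ka6, a kinase downstream of Erk (0.62 ± 0.13, adjusted p = 0.00177).

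Fau, the fusion gene of small subunit protein eS30, was at -0.24 (adjusted p = 0.05) and Gnb2l1, the earlier symbol of Rack1, a scaffold on the small subunit, at -0.20 (adjusted p = 0.0509). Neither carries an Rpl or Rps symbol. Mitochondrial ribosomal proteins, which serve a separate ribosome, had 0 rises and 9 falls of 77 with a median of -0.12. Their median transcript length was 1223 bases, and Mrpl37 had the smallest p (-0.38 ± 0.06, adjusted p = 0.000159). In both mPIA comparisons with NBC, 0 members of any of these lists were called, and in sPIA against NBC males only Mrpl55 was, at 0.77 ± 0.17 (adjusted p = 0.0438).

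A few members varied within groups far more than the rest. Over the 84, the highest library exceeded the lowest by a median factor of 1.62, against 1.69 over the 14773 tested rows with a count in every library, and 10 members (11.9%, against 12.6% of those rows) exceeded it by a factor of 4 or more. Rpl29, a small basic protein of the large subunit, stood out with a factor of 72.5. Its counts formed separate levels that cut across the groups: 9 libraries lay at or under 0.975 CPM and 14 at or over 8.43 CPM, with 0 between. It had 0.69, 0.34, 11.2 and 10.9 CPM in sPIA females, against 0.41, 0.49, 0.97 and 21.2 CPM in NBC females. In mPIA females mPIA female 2 alone was at the upper level (11.4 CPM), and in mPIA males mPIA male 3 alone was at the lower (0.29 CPM). Sorted values with a step of 5-fold or more were found in 68 rows, 0.46% of those 14773, and Rpl29 was the only member among them. It has 19 pseudogenes that hold 25% or more of its words.

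Rps29, a zinc-binding small subunit protein, also varied within most groups, though without separate levels. It had 30.1, 59.5, 49.8 and 20.5 CPM in sPIA females, against 98.8, 30.6, 82.9 and 89.6 CPM in NBC females, and 20.8, 53.8, 61.5 and 20.3 CPM in sPIA males, against 67.4, 21.6 and 25.0 CPM in NBC males. The mPIA females had 39.99, 83.6, 87.6 and 48.6 CPM, while the mPIA males lay close together at 21.2, 18.5, 15.6 and 18.4 CPM. In females the sPIA and NBC groups overlapped (sPIA against NBC females -0.91 ± 0.47, adjusted p = 0.218 by edgeR). Rps2 had 69.9 CPM in sPIA male 4, 68.5 CPM in sPIA female 4 and 60.6 CPM in sPIA female 2, against 23.7 to 37.8 CPM in the other 20 libraries. All 3 are from severely anemic pups, but the other 5 pups of that treatment were not high. Rps2 was not called in females (0.59 ± 0.31, adjusted p = 0.226 by edgeR) or males (0.43 ± 0.34, adjusted p = 0.653). The codes of sPIA male 4 and sPIA female 4 share the prefix P14 with NBC male 3, which had 34.7 CPM.

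Rps27a, which encodes ubiquitin fused to small subunit protein eS31, had 5.89, 1.93, 14.6 and 5.78 CPM in sPIA females, against 15.8, 15.6, 14.1 and 11.1 CPM in NBC females. A single sPIA female, number 3, lay within the control range, and the change of -1.001 ± 0.46 had an adjusted p of 0.158. All males were at 1.05 to 8.13 CPM, below all 8 libraries with digit codes at 10.9 to 15.8 CPM.

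**Figure D5:**
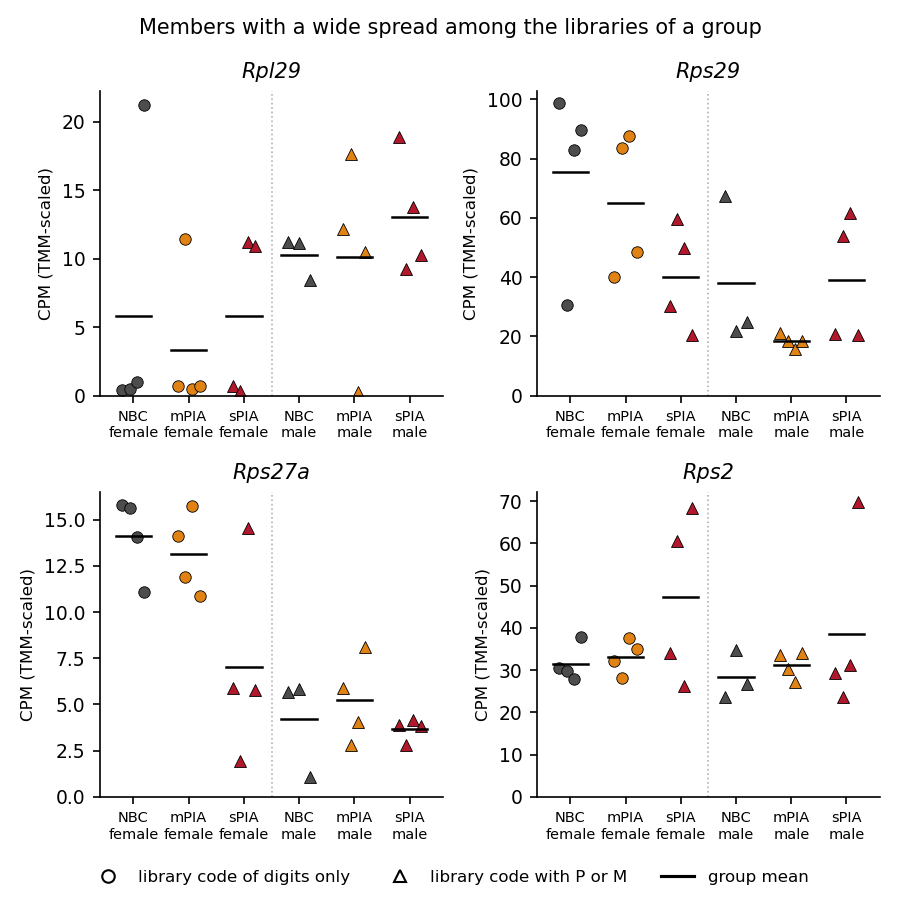
Levels (CPM, TMM-scaled) of Rpl29, Rps29, Rps27a and Rps2 by library. Points are libraries, bars are group means and the point shape gives the library code series. Rpl29 has 9 libraries at or under 0.975 CPM and 14 at or over 8.43 CPM, with both levels in the mPIA males and in the 3 female groups.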

How the data were processed

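Polyadenylated RNA of 23 hippocampi was sequenced. The authors deposited raw counts per gene symbol for each library. The submitters' processing notes name FastQC, TopHat2 2.0.13, Subread, edgeR and the mouse build mm10, without the role of each. For annotation, strand and reads with several matches, settings were not given in the sources used here. Members and gene lists were chosen with earlier results of these data known.

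Rows passed edgeR's filter (minimum count 10, minimum total 15), which left 15475 of 24421, and were tested with edgeR's quasi-likelihood test (edgeR 4.0.16, R 4.3.3, robust, TMM factors) in a single fit of 6 group means, with Benjamini-Hochberg adjustment over the rows tested. The p-values measure the spread between libraries, each read as a separate mouse. Replicate libraries differed by more than counting noise (3.09 to 31.3 as chi-square over its degrees of freedom). CPM values are TMM-scaled, and per kb values use the GENCODE M21 reference transcript, found for 23350 rows. Sequence sharing was counted over 31-letter words between those transcripts. Length and GC trends were removed per library with a spline of 4 degrees of freedom. DESeq2 1.42.0 and limma-voom (limma 3.58.1) served as alternatives, and the scripts were tested on simulated data. Figures were drawn with matplotlib 3.10.9.

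Named members were a fixed set by role (stalk, 5S RNA binding, X-linked, paralogs, Rpsa, Rps6, Rps19, Rpl41), the 6 of smallest p in each direction per pairwise comparison (3 where under 3 were called), the 3 of smallest p per sex difference, the 3 highest and lowest per length, the 3 -ps rows of highest count, and up to 2 called genes per related list. Rpl7a, Rpl13, Rpl27, Rpl6, Rps29, Rps27a, Rps2 and Rpl29 with its neighbours at low level were chosen after their values were seen, as were genes listed only by count. Some genes that the rule names are counted but not reported by name here.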

Additional observations from a re-analysis of the deposited data

Results flagged for a closer look

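In 7 of 125 groups of 4 libraries, a library of a named gene lay apart from the other 3 by Dixon's criterion at 95%, which chance alone meets in about 1 of 20 groups. High libraries were NBC female 3 for Rps12 (47.9 CPM), mPIA female 4 for Rpl15 (84.2 CPM) and Rps15a (134 CPM) and mPIA male 1 for Rpl23a (23.5 CPM). Low libraries were NBC female 1 for Rps4l (14.5 CPM), mPIA female 2 for Rpl7 (165 CPM) and mPIA male 2 for Rps15a (71.4 CPM).

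By the interaction term in the fit of all libraries, the effect of severe anemia was called as different between females and males in Rps12 and Rpl7a among others. Neither call held in every setting. With length removed, GC content and length removed, or the replicate block, 0 members were called lower. A fit of only the groups compared made 0 calls. The difference, female change minus male change on the log2 scale, was -0.65 for Rps12 and -0.46 for Rpl7a. In these genes the sPIA and NBC females also differ in library code series while the males do not, so that the sex difference and the code series cannot be told apart. By S number, sPIA lies apart from NBC in both sexes.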

How the results depend on the processing

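Of the recomputed counts and medians over the members, 42 moved and 280 stayed within 1.5 times the count or within 1 SD of replicates. Shares of all rows called are given for the main fit only, so the counts below have no background beside them. With the length trend removed the median change was -0.070 in sPIA against NBC females, -0.034 in sPIA against mPIA females and -0.045 for the sex difference of the sPIA effect, and sPIA against mPIA males had 5 calls. With GC content and length removed sPIA against NBC females had 14 calls (median -0.073), sPIA against mPIA females 17 and sPIA against mPIA males 1, and the sex difference had a median of -0.054. DESeq2 made 7 calls in sPIA against mPIA males and 9 for the sex difference of the sPIA effect, and a fit of only the groups compared made 1 and 0. Without NBC males 3 and 4, chosen after seeing the data, the median was 0.11 for sPIA and 0.067 for mPIA against NBC males, -0.095 for the sex difference of the mPIA effect and -0.23, with 2 calls, for that of the sPIA effect. Rpl7 then reversed to 0.084 in mPIA against NBC males and to -0.041 for the sex difference of the mPIA effect. The cause was not tested beyond what each alternative leaves out.

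Leaving out 1 library at a time gave 16 to 29 calls in sPIA against NBC females, 18 to 31 in sPIA against mPIA females, 1 to 5 in sPIA against mPIA males, 0 to 3 in mPIA against NBC males and 0 to 8 for the sex difference of the sPIA effect. The medians ran from -0.060 to 0.068 for the sex difference of the mPIA effect and from -0.21 to -0.083 for that of the sPIA effect.

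The labels do not say that a replicate number marks a pair, though same-numbered NBC and mPIA females have codes with the same prefix, whose meaning is not given. Same-numbered deviations correlated at 0.036 to 0.15 in NBC and mPIA females, and at -0.08 to 0.093 elsewhere. Within groups, NBC females 1 and 2 share the prefix 86, as do mPIA females 1 and 2. The prefixes P11, P13 and P14 each occur in more than 1 group. Whether libraries of the same prefix are independent is not given. With the number or the code prefix as a block, mPIA against NBC females had 0 calls. With the number as a replicate block, the sex difference of the sPIA effect had 1 call, sPIA against NBC females 6 higher and 23 lower, and sPIA against mPIA females 7 higher and 21 lower.

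Of the single genes named, 83 recomputed results lost significance and 2 gained it, against 720 that did neither and 2 that reversed. Rps6, Rpl23 and Rpl15 lost their calls in sPIA against mPIA males with GC content and length removed. In sPIA against NBC females Rplp1 was not called without the low-count filter. Some low members rest on few counts: Rpl17 had 36 to 138 counts per library and Rps27 had 7 to 65. Rpl26 cannot be measured in this table. Why these counts are low was not tested.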

Other observations

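Rpl14-ps1, the processed copy of Rpl14, had 54.6 to 57.9 CPM in sPIA females, against 45.3 to 48.7 CPM in NBC females, without overlap. In NBC males it ranged from 47.3 to 80.2 CPM. For Rps27, whose transcript shares 98.7% of its words with Rps27rt, the 23 libraries together held 488 counts, while Rps27rt had 0.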
